A study of Mus musculus with 9 samples.

Results

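The costimulatory and coinhibitory ligands examined here are 10 genes of the DC surface that set how a T cell reads the antigen it is shown: *Cd80*, *Cd86*, *Icosl*, *Cd274*, *Pdcd1lg2*, *Cd83*, *Cd40*, *Tnfsf4*, *Tnfsf9* and *Cd70*. They were chosen by name, each as the row of the count matrix that carries its symbol, and all 10 of 10 names matched 1 row each among 55471 genes. Their transcripts were measured by RNA sequencing in DCs grown with GM-CSF from the bone marrow of wild-type (WT) mice, which per the study's methods were adult female C57BL/6 animals. Cells were left unstimulated or received LPS, a component of the bacterial outer membrane sensed by a Toll-like receptor, or IFN-beta (IFN-β), a type I interferon, and RNA was taken after 6 h. Each of the 3 groups had 3 libraries, lettered A, B and C, and the comparisons ask how a bacterial and an antiviral signal differ in what they do to DC gene expression.

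A T cell that meets its antigen on a DC also reads a second layer of signals. CD80 and CD86 bind CD28, which promotes activation, and CTLA-4, which restrains it. ICOSL engages ICOS. PD-L1 (*Cd274*) and PD-L2 (*Pdcd1lg2*) engage the inhibitory receptor PD-1. CD40 is a receptor on the DC itself, through which T cell CD40L feeds back on DC activation, and OX40L (*Tnfsf4*), 4-1BBL (*Tnfsf9*) and CD70 are ligands of the TNF superfamily for OX40, 4-1BB and CD27. CD83 is a surface marker of mature DCs that stabilises MHC class II and CD86 on the membrane. Low levels of these molecules are typical of resting DCs, and their increase is a hallmark of DC maturation.

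The gene counts of a library summed to 33425803 to 43735199, and 16260 genes passed the filter on low counts. All 10 of the ligand genes did, although *Cd70* met the filter only through its counts in LPS-activated DCs, so that its call there was favoured by the filter. Levels are given in CPM, each gene's counts scaled to a common library size after TMM scaling, which corrects for differences in RNA composition, and as mean ± SD over 3 libraries. Fold changes are those of edgeR's quasi-likelihood fit with its standard error (SE), and a gene was called changed at a Benjamini-Hochberg adjusted p under 0.05 over all 16260 genes. The labels do not say whether the libraries of a group came from separate cultures or animals, so p-values measure the spread between these libraries only. The DC markers were present in every library, with *Itgax* (CD11c) at 1358 to 1672 CPM and *H2-Ab1* (MHC class II) at 522.9 to 919.2 CPM, while *Flt3*, a receptor of conventional DCs, was low at 1.88 to 4.99 CPM. Summed over 10 DC and macrophage markers, the level was 8015 to 9105 CPM in unstimulated, 9354 to 10007 CPM in LPS-activated and 8768 to 9386 CPM in IFN-β-treated DCs. Within that sum, and picked after the values were seen, *Adgre1* (F4/80) went from 157.6 ± 47.9 to 368.6 ± 76 CPM with LPS and *Csf1r* from 1101 ± 87.9 to 562.0 ± 23.5 CPM, while with IFN-β they stood at 164.6 ± 41 and 1055 ± 41.9 CPM. The 8 neutrophil markers, led by *S100a8*, summed to 9.74 to 24.8 CPM, and those of B cells, NK cells, mast cells and red cells to at most 0.5305, 0.3545, 0.2764 and 0.2621 CPM, led by *Cd79b*, *Klrb1c*, *Mcpt8* and *Hbb-bt*. The 7 T cell markers summed to 0.3142 to 0.6331 CPM in unstimulated DCs, 3.11 to 4.11 CPM with LPS and 0.9364 to 1.71 CPM with IFN-β. The kinase gene *Lck* gave a mean of 0.3133, 3.6 and 1.09 CPM of these and *Cd4* one of 0.136, 0.07161 and 0.1091 CPM, whereas *Cd3d*, *Cd3e* and *Cd3g* had at most 4 counts in any library and *Cd8b1* had 0. The part of these markers in the results was not tested.

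LPS raised the transcripts of all 10 genes, from 1.61-fold for *Pdcd1lg2* to 168.0-fold for *Cd40*. In scaled CPM, the 3 LPS libraries lay above the 3 unstimulated ones for each gene. For *Pdcd1lg2* this rests on the scaling, as its raw counts overlapped (2379 to 2650 unstimulated, 2478 to 3407 with LPS). Of all tested genes, 32.8% were called higher with LPS and 35.4% lower, and 34.6% had every LPS library above every unstimulated one. IFN-β raised 7 of the 10 genes (*Cd80*, *Cd86*, *Icosl*, *Cd274*, *Pdcd1lg2*, *Cd40* and *Tnfsf4*), against 23.6% of all tested genes called higher and 23.3% lower. This fit leaves the replicate letters aside. With the letter as a block, 9 of the 10 were called higher. Of all tested genes, 56.3% were then called in either direction, against 46.9% without the block, and 49.6% of those block calls were higher. In scaled CPM, the IFN-β libraries lay above the unstimulated ones for 9 of the 10 genes, *Cd83* being the exception, and for 28.5% of all tested genes. For *Cd70* and *Tnfsf9*, neither of them called, and for *Icosl*, which was called, this rests on the scaling. Their raw counts tied at 7 for *Cd70* and overlapped for *Tnfsf9* (120 to 160 unstimulated, 138 to 229 with IFN-β). Those of *Icosl* overlapped as well (1271 to 1657 unstimulated, 1514 to 1726 with IFN-β). The raw counts of *Cd80* did not overlap, but its IFN-β change was 0.00 under scaling by library size alone. Directly compared, 9 of the 10 genes were lower with IFN-β than with LPS, and *Pdcd1lg2* did not differ past the threshold. In that comparison 23.3% of all tested genes were lower with IFN-β and 25.8% higher, and 27.3% had every IFN-β library below every LPS library. The median log2 fold change of the 10 genes was 2.48 with LPS, 0.61 with IFN-β and -1.54 for IFN-β against LPS, beside -0.04, -0.02 and 0.02 over all tested genes. Both stimuli were compared with the same 3 unstimulated libraries. These are bulk RNA samples, in which a change in the number of cells that express a gene and a change in RNA per cell cannot be told apart.

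**Figure D1:**
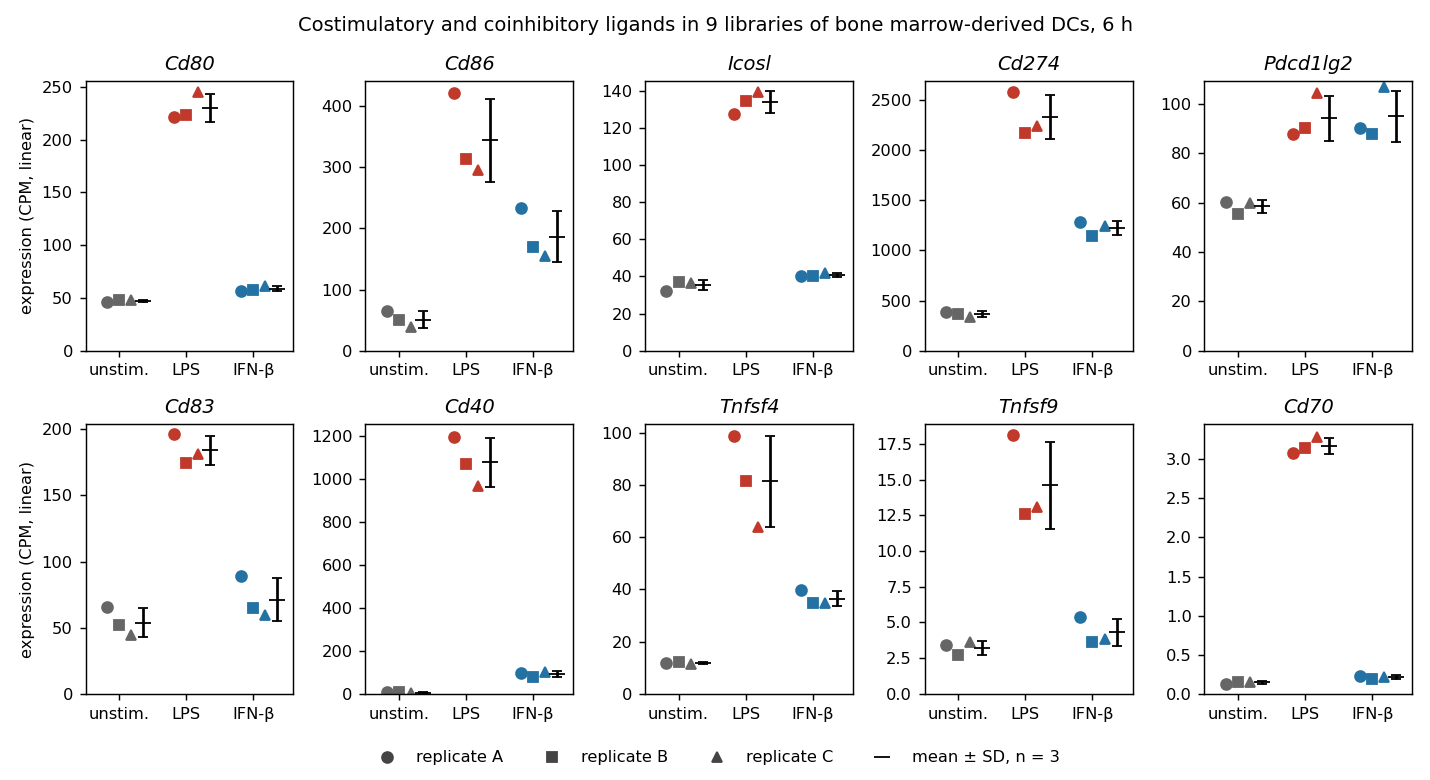
Expression of the 10 genes in CPM on a linear axis starting at 0, with 1 panel a gene, 1 point a library (marker shape gives the replicate letter) and the mean ± SD of 3 libraries in black. All 10 genes stand higher in the 3 LPS libraries than in the 3 unstimulated ones, and *Pdcd1lg2* is the gene whose LPS and IFN-β libraries share a range (87.6 to 104.6 and 87.6 to 106.7 CPM).

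The CD28 and CTLA-4 ligands CD80 and CD86 had unlike values under IFN-β. *Cd80* (ENSMUSG00000075122, chromosome 16, 38455561 to 38496335, plus strand, GRCm38) stood at 45.9, 48.1 and 47.7 CPM in unstimulated replicates A, B and C, at 221.4, 223.5 and 245.4 CPM with LPS and at 56.9, 57.9 and 61.1 CPM with IFN-β. No groups overlapped, but the IFN-β libraries lay close above the unstimulated ones while the LPS libraries stood far above both. The LPS change was a log2 fold change of 2.28 (SE 0.07, adjusted p = 1.8e-09, edgeR) and the IFN-β change one of 0.31 (SE 0.06, adjusted p = 0.0023, edgeR). The latter was 0.00 (adjusted p = 0.9695) when counts were scaled by library size alone.

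*Cd86* (ENSMUSG00000022901, chromosome 16, 36603869 to 36666081, minus strand) was measured at 64.7, 49.7 and 38.4 CPM in unstimulated DCs, at 421.4, 313.2 and 296.0 CPM with LPS and at 233.8, 169.6 and 155.1 CPM with IFN-β. Again no groups overlapped, and here IFN-β took the gene well away from its resting level. Its log2 fold change was 2.75 with LPS (SE 0.22, adjusted p = 1.1e-06, edgeR) and 1.87 with IFN-β (SE 0.22, adjusted p = 6.3e-05, edgeR). IFN-β stood below LPS by a log2 fold change of -0.88 for *Cd86* (SE 0.21, adjusted p = 0.005091, edgeR) and of -1.97 for *Cd80* (SE 0.06, adjusted p = 1.3e-08, edgeR).

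Because both bind the same receptors, their ratio was also taken within each library, per kb of exon, which removes the library size from the value. The log2 ratio of *Cd86* to *Cd80* was 0.09 ± 0.41 (SD, n = 3) in unstimulated, 0.58 ± 0.34 in LPS-activated and 1.66 ± 0.36 in IFN-β-treated DCs. In linear terms, IFN-β libraries A, B and C held 4.15, 2.96 and 2.57 times as much *Cd86* as *Cd80* per kb, and unstimulated ones 1.43, 1.04 and 0.8136 times. The IFN-β ratios lay above those of both other groups (differences 1.57 and 1.08), each with p = 0.1 in a two-sided exact permutation test, the smallest that 3 libraries against 3 allow. LPS and unstimulated ratios overlapped (difference 0.49, exact permutation p = 0.3) in this test, which leaves the replicate letters aside. Within letters A, B and C the LPS ratio exceeded the unstimulated one by 0.43, 0.44 and 0.58 on the log2 scale. This was 1 of 18 comparisons in a family of 6 gene pairs, none of which can reach p under 0.05 in this design, so that adjusted values are no smaller than 0.1 either.

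ICOSL, the ligand of ICOS on activated T cells, had a large change with LPS and a small one with IFN-β. *Icosl* (ENSMUSG00000000732, chromosome 10, 78069302 to 78083913, plus strand) had 32.2, 37.2 and 36.4 CPM in unstimulated DCs, 127.4, 134.8 and 139.4 CPM with LPS and 40.4, 40.2 and 42.1 CPM with IFN-β. LPS libraries stood clear of the rest, and the IFN-β libraries were above the unstimulated ones by less than the width of the unstimulated range. The log2 fold change was 1.92 with LPS (SE 0.07, adjusted p = 6.6e-09, edgeR). With IFN-β it was 0.21 (SE 0.07, adjusted p = 0.02746, edgeR), the smallest called change among the 10 genes, and -0.10 (adjusted p = 0.3777) under scaling by library size alone. This IFN-β call was also lost without unstimulated replicate A (log2 fold change 0.15, adjusted p = 0.1103), without IFN-β replicate A (0.22, adjusted p = 0.06003) and without IFN-β replicate C (0.20, adjusted p = 0.08002).

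The PD-1 ligands are neighbours on chromosome 19, on the same strand and 22.8 kb apart, and their fold changes with each stimulus were unlike. *Cd274*, which encodes PD-L1 (ENSMUSG00000016496, 29367455 to 29388095), was the most abundant of the 10 genes per kb in every group. It read 390.2, 370.7 and 338.8 CPM in unstimulated DCs, 2576, 2173 and 2238 CPM with LPS and 1280, 1143 and 1244 CPM with IFN-β. The 3 groups were separate, with IFN-β between the others, at log2 fold changes of 2.67 for LPS (SE 0.1, adjusted p = 8.4e-09, edgeR) and 1.74 for IFN-β (SE 0.1, adjusted p = 1.1e-06, edgeR). IFN-β against LPS was -0.93 (SE 0.1, adjusted p = 2.1e-05, edgeR). Of the *Cd274* exon length of 3622 bases, 511 (14.1%) lie opposite exons of the antisense gene AC119228.1, which had 33 to 168 counts per library beside a *Cd274* mean of 15651 counts or more per group. The antisense gene changed in the same direction, by 2.51 with LPS (adjusted p = 3.0e-07, edgeR) and 1.46 with IFN-β (adjusted p = 7.3e-05, edgeR) on the log2 scale. How strand was treated in the counting is not given in the sources used here, and reads of the overlap cannot be assigned to either gene without it.

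*Pdcd1lg2*, which encodes PD-L2 (ENSMUSG00000016498, 29410919 to 29471161), moved least with LPS. Unstimulated DCs had 60.2, 55.5 and 59.8 CPM, LPS-activated DCs 87.6, 90.4 and 104.6 CPM and IFN-β-treated DCs 90.4, 87.6 and 106.7 CPM. Both stimulated groups lay above the unstimulated one and over each other. LPS gave a log2 fold change of 0.69 (SE 0.09, adjusted p = 6.0e-05, edgeR) and IFN-β one of 0.70 (SE 0.09, adjusted p = 1.6e-04, edgeR), but the LPS value was 0.11 (adjusted p = 0.3311) under scaling by library size alone. The difference between the stimuli was 0.01 with a 95% interval of -0.19 to 0.21 (adjusted p = 0.9331, edgeR), and 0.28 (adjusted p = 0.02921) under library size alone.

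The balance of the 2 PD-1 ligands was taken within each library. Their mean ± SD over 3 libraries, as the log2 ratio of *Cd274* to *Pdcd1lg2* per kb, was 1.76 ± 0.13 in unstimulated, 3.74 ± 0.23 in LPS-activated and 2.80 ± 0.14 in IFN-β-treated DCs. Per kb, *Cd274* was 3.07 to 3.62 times *Pdcd1lg2* at rest, 11.6 to 15.9 times with LPS and 6.31 to 7.66 times with IFN-β. No 2 groups overlapped (exact permutation p = 0.1 for each of the 3 comparisons).

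Costimulatory and inhibitory ligands were also set against each other. The log2 ratio of *Cd86* to *Cd274* was -2.89 ± 0.28 in unstimulated, -2.79 ± 0.15 in LPS-activated and -2.75 ± 0.28 in IFN-β-treated DCs. The groups overlapped in all 3 comparisons, with differences of 0.10, 0.14 and 0.04 (exact permutation p = 0.7, 0.6 and 0.9), smaller than the SD of the unstimulated libraries. Within letters A, B and C the differences were 0.14, 0.15 and 0.14 for IFN-β against unstimulated, and of mixed sign for LPS against unstimulated (-0.02, 0.11 and 0.22) and for IFN-β against LPS (0.16, 0.04 and -0.08). The log2 ratio of *Cd80* to *Cd274* was -2.99 ± 0.13 at rest, -3.37 ± 0.18 with LPS and -4.41 ± 0.10 with IFN-β, with no overlap between groups (exact permutation p = 0.1 each).

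**Figure D2:**
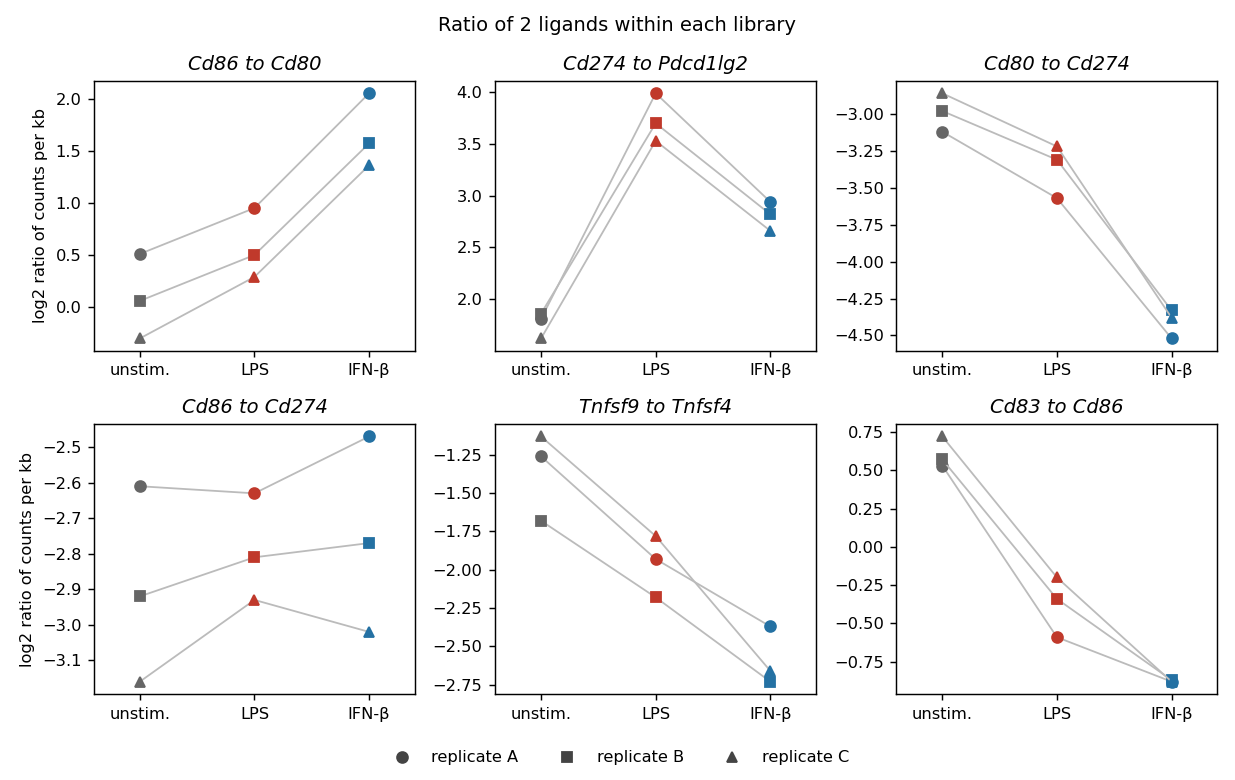
Log2 ratio of 2 genes per kb of exon within each library, by group, for 6 gene pairs. Points are libraries, marker shape gives the replicate letter and grey lines join libraries of 1 letter. The *Cd86* to *Cd80* ratio is highest with IFN-β (1.36 to 2.05), the *Cd274* to *Pdcd1lg2* ratio with LPS (3.53 to 3.99), and the *Cd86* to *Cd274* ratio overlaps in all groups.

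For 4 of the 10 genes, all of the B7 family, the set of RefSeq promoter windows used here held a window. Each ran from 250 bases before to 50 bases after the start of the transcript (GRCm38.p6, plus strand for each). These 4 are shown because that set held no window for the other genes, *Cd86* among them, which does not mean that RefSeq lacks them. Among them, *Cd274* responded to both stimuli and its neighbour *Pdcd1lg2* changed less. *Cd80* and *Icosl* had a large change with LPS and a small one with IFN-β. Capitals mark a match to the NF-κB consensus, which reads 3 G, a purine, any 2 bases, 2 pyrimidines and 2 C, searched on both strands.
Cd80 (chr16:38458683-38458982): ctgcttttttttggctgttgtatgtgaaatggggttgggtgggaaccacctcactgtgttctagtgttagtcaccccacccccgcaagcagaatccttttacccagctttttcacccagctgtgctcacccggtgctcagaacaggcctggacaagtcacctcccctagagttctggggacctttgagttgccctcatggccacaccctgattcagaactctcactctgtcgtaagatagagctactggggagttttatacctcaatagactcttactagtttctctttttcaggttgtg
Icosl (chr10:78069118-78069417): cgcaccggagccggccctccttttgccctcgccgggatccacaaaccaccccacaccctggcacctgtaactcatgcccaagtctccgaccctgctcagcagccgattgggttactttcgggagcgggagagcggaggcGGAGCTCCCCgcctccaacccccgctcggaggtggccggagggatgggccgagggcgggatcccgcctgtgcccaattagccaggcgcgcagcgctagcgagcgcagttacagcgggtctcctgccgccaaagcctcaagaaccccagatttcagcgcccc
Cd274 (chr19:29367188-29367487): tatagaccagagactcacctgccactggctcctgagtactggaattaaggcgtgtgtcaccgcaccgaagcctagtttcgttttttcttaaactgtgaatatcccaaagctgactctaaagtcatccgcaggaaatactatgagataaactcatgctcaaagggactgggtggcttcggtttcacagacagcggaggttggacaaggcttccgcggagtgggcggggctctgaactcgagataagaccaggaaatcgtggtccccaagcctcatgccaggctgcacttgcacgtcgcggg
Pdcd1lg2 (chr19:29410669-29410968): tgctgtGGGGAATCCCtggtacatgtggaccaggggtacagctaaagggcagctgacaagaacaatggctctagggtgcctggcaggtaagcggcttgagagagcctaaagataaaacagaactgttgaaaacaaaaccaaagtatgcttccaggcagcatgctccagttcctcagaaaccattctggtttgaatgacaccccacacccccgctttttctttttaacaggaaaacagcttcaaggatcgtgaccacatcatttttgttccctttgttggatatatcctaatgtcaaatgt

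*Pdcd1lg2* held the consensus as GGGGAATCCC, starting 244 bases before the transcript start, and *Icosl* as GGAGCTCCCC, starting 111 bases before it and matching on the minus strand. The same consensus was found in 8.46% of 32851 RefSeq promoter windows. Neither the core of the interferon-stimulated response element (GAAANNGAAA, in 3.44% of windows) nor that of the STAT site GAS (TTCNNNGAA, in 8.3%) was found in the 4 windows. An absent match means only that those letters are not in the window. The RefSeq window of *Cd80* lies inside the gene as GENCODE draws it, since GENCODE starts the gene further upstream.

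CD83, the marker of mature DCs, was called with LPS but not with IFN-β. *Cd83* (ENSMUSG00000015396, chromosome 13, 43784775 to 43803132, plus strand) had 65.6, 51.9 and 44.4 CPM in unstimulated DCs, 196.2, 174.2 and 181.6 CPM with LPS and 89.5, 65.1 and 59.4 CPM with IFN-β. The LPS group was separate, whereas IFN-β replicates B and C fell within the unstimulated range. LPS gave a log2 fold change of 1.77 (SE 0.17, adjusted p = 3.9e-06, edgeR) and IFN-β one of 0.40 (SE 0.16, 95% interval 0.04 to 0.77, adjusted p = 0.06551, edgeR). Within letters, IFN-β exceeded unstimulated by 0.45, 0.33 and 0.42 on the log2 scale in A, B and C. With the replicate letter as a block the IFN-β change passed the threshold (log2 fold change 0.40, SE 0.08, adjusted p = 8.3e-04, edgeR). It also passed without unstimulated replicate A (0.56, adjusted p = 0.01661) and without IFN-β replicate C (0.52, adjusted p = 0.03191). IFN-β stood below LPS by -1.37 (SE 0.17, adjusted p = 6.0e-05, edgeR).

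Per kb, *Cd83* exceeded *Cd86* in every unstimulated library and lay below it in every stimulated one. Over 3 libraries, the log2 ratio (mean ± SD) was 0.61 ± 0.10 at rest, -0.38 ± 0.20 with LPS and -0.87 ± 0.00 with IFN-β, with no overlap between groups (exact permutation p = 0.1 each). The linear ratio was 0.5451, 0.5463 and 0.5447 in IFN-β libraries A, B and C, while the level of *Cd86* in the same libraries spanned 1.51-fold.

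*Cd40* gave the largest response of the 10 genes to both stimuli. CD40 is the receptor through which helper T cells license DCs, and its gene (ENSMUSG00000017652, chromosome 2, 165055627 to 165072948, plus strand) was low at rest, at 7.01, 6.78 and 5.43 CPM. LPS took it to 1194, 1069 and 966.1 CPM and IFN-β to 98.6, 77.7 and 101.0 CPM. The groups were far apart, with IFN-β more than an order of magnitude above rest and as far below LPS. The log2 fold change was 7.39 with LPS (SE 0.17, adjusted p = 7.2e-10, edgeR), exceeded by 44 of the 16260 tested genes, and 3.85 with IFN-β (14.4-fold, SE 0.15, adjusted p = 1.8e-07, edgeR), exceeded by 105. IFN-β was 11.6-fold below LPS (log2 fold change -3.54, SE 0.14, adjusted p = 2.9e-08, edgeR).

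The TNF superfamily ligands differed in their IFN-β response. *Tnfsf4*, the gene of OX40L, which sustains T cell survival through OX40 (ENSMUSG00000026700, chromosome 1, 161395409 to 161418410, plus strand), had 11.7, 12.3 and 11.3 CPM in unstimulated DCs, 98.8, 81.6 and 64.0 CPM with LPS and 39.7, 34.8 and 35 CPM with IFN-β. The groups were separate and the LPS libraries the most spread. It rose by a log2 fold change of 2.79 with LPS (SE 0.14, adjusted p = 4.3e-08, edgeR) and 1.63 with IFN-β (SE 0.14, adjusted p = 8.8e-06, edgeR), and IFN-β stood below LPS by -1.16 (SE 0.13, adjusted p = 4.0e-05, edgeR).

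*Tnfsf9*, the gene of 4-1BBL, which costimulates CD8 T cells through 4-1BB (ENSMUSG00000035678, chromosome 17, 57105325 to 57107757, plus strand), had 3.42, 2.69 and 3.61 CPM at rest, 18.1, 12.6 and 13.1 CPM with LPS and 5.36, 3.66 and 3.86 CPM with IFN-β. The lowest IFN-β library lay just above the highest unstimulated one. LPS gave a log2 fold change of 2.17 (SE 0.19, adjusted p = 2.3e-06, edgeR), and IFN-β one of 0.41 (SE 0.2, 95% interval -0.02 to 0.85, adjusted p = 0.1114, edgeR). With the replicate block the IFN-β change was called (0.40, SE 0.12, adjusted p = 0.01472, edgeR). Within letters the IFN-β difference was 0.65, 0.44 and 0.10 in A, B and C. *Tnfsf9* shares 192 of its 1290 exon bases (14.9%) with the antisense gene Gm11110, which had 87 to 142 counts per library and no called change with LPS (log2 fold change 0.05, adjusted p = 0.7686, edgeR) or with IFN-β (0.20, adjusted p = 0.2861). Gm11110 had nearly as many counts as *Tnfsf9* at rest (mean 138.3). Where strand is not known, reads of the shared bases cannot be assigned to either gene, and the resting level of *Tnfsf9* is uncertain by that part.

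*Cd70*, the ligand of CD27 (ENSMUSG00000019489, chromosome 17, 57145997 to 57149777, minus strand), lies 38.2 kb from *Tnfsf9* on the opposite strand. It was nearly absent outside LPS, with 5, 7 and 7 counts in the unstimulated libraries and 10, 7 and 8 in the IFN-β libraries against 87, 108 and 107 with LPS. In CPM these are 0.1266, 0.1571 and 0.1578 at rest, 3.08, 3.14 and 3.29 with LPS and 0.2341, 0.1858 and 0.2208 with IFN-β. The LPS libraries stood alone. The LPS log2 fold change was 4.39 (21-fold, SE 0.21, adjusted p = 2.6e-08, edgeR). An IFN-β change was not detectable at this depth (log2 fold change 0.52, SE 0.28, 95% interval -0.1 to 1.15, adjusted p = 0.3146, edgeR), while IFN-β was below LPS by -3.87 (SE 0.2, adjusted p = 1.4e-07, edgeR).

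The ratio of *Tnfsf9* to *Tnfsf4* per kb was highest at rest. Its log2 mean ± SD over 3 libraries was -1.36 ± 0.29 in unstimulated, -1.96 ± 0.20 in LPS-activated and -2.59 ± 0.19 in IFN-β-treated DCs. The groups did not overlap (exact permutation p = 0.1 each).

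**Figure D3:**
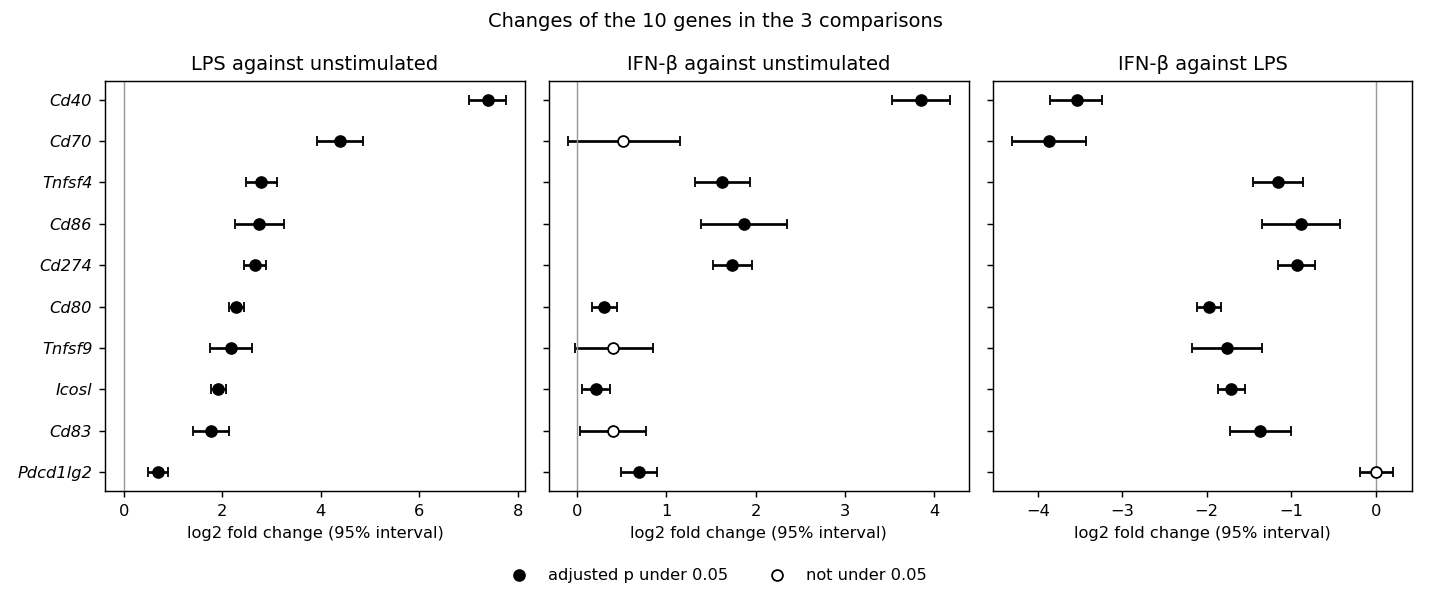
Log2 fold changes of the 10 genes (edgeR, points) with 95% intervals (bars) in the 3 comparisons, filled where the adjusted p was under 0.05 and ordered by the LPS change. *Cd40* leads with LPS (7.39) and with IFN-β (3.85), *Cd70* is second with LPS (4.39) but not called with IFN-β (0.52), and *Pdcd1lg2* lies at 0.01 for IFN-β against LPS.

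Per kb of exon, the order of levels within a group changed with stimulation. In unstimulated DCs *Cd274* led with 101.2 CPM per kb, followed by *Pdcd1lg2* (29.8), *Cd83* (21), *Cd86* (13.9), *Cd80* (12.8), *Icosl* (7.63), *Tnfsf4* (6.4), *Tnfsf9* (2.51), *Cd40* (1.88) and *Cd70* (0.1748). Among these neighbours, *Cd83* and *Cd86* overlapped between libraries, as did *Cd86* and *Cd80*. With LPS *Cd40* moved from ninth place to directly below *Cd274*, at 316.1 and 643.0 CPM per kb, and *Pdcd1lg2* (48) dropped to overlap with *Tnfsf4* (44.2). With IFN-β *Cd274* (337.4) was followed by *Cd86* (50.8), which overlapped *Pdcd1lg2* (48.4), and *Cd83* (27.7) overlapped *Cd40* (27.1). *Cd274* made up 51.3% of the summed level of the 10 genes in unstimulated, 48.6% in LPS-activated and 62.5% in IFN-β-treated DCs. *Cd40* made up 0.9538%, 23.9% and 5.03%. *Cd70* was last in all 3 groups.

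*Cd86* varied more between replicates than most of the other ligand genes, and the variation followed the replicate letter. It was highest in A and lowest in C in each group, by 1.69-fold at rest, 1.42-fold with LPS and 1.51-fold with IFN-β. *Cd83* was highest in A as well, by 1.48-fold over C at rest and 1.51-fold over C with IFN-β. *Cd80* instead was lowest in A in each group, by at most 1.11-fold. Of 30 gene and group combinations, A was the highest library in 17, B in 3 and C in 10. Of the 10 DC and macrophage markers, 6 were above their group mean in all 3 A libraries, 3 were below it in all 3, and 1 was mixed. Of the 8 neutrophil markers, 3 were above it in all 3 A libraries and 5 were mixed. The order A over B over C held in every group for 3 of the 10 and 2 of the 8. The markers named next were picked after their values were seen. *Adgre1*, a macrophage marker, deviated the same way, with 211.9, 139.9 and 121.1 CPM in unstimulated replicates A, B and C, and so did *Flt3*, at 4.51, 2.42 and 2.23 CPM. *Zbtb46*, a transcription factor of conventional DCs, deviated the other way, at 27.8, 32.9 and 36.8 CPM. Each of these 3 genes kept its order in the LPS and IFN-β libraries. The part of the markers in the *Cd86* and *Cd83* values was not tested. Within a letter, the *Cd86* change was steady, at 2.66 to 2.95 on the log2 scale with LPS and 1.77 to 2.01 with IFN-β.

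**Figure D4:**
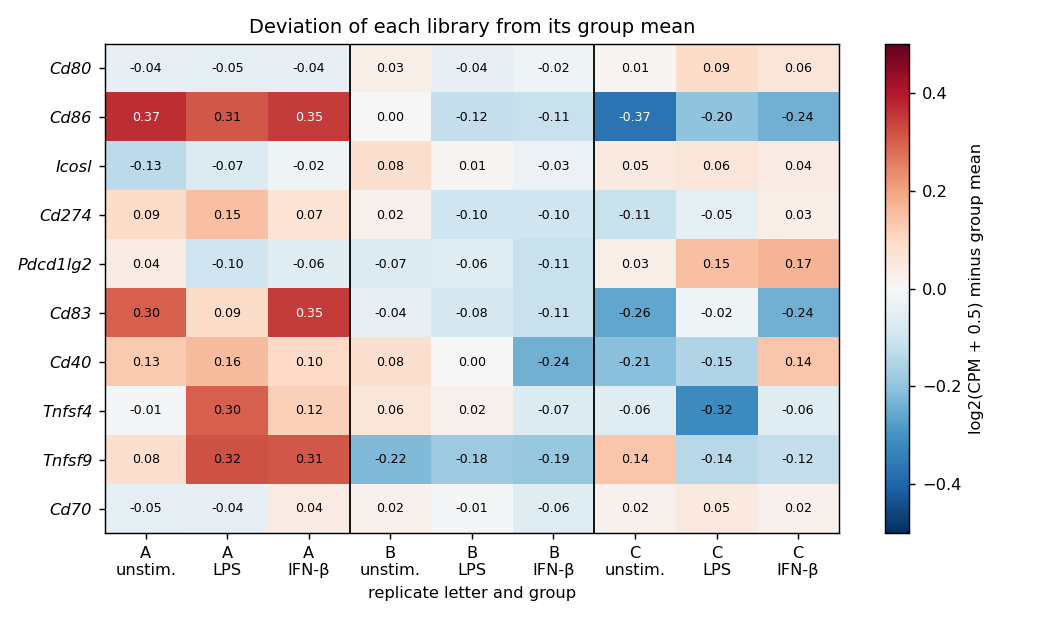
Deviation of each library from its group mean, in log2(CPM + 0.5), for the 10 genes (rows) and the 9 libraries (columns) sorted by replicate letter. *Cd86* is above its group mean in all 3 A libraries (0.31 to 0.37) and below it in all 3 C libraries (-0.37 to -0.20), and *Cd83* is above it in all 3 A libraries (0.09 to 0.35).

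Other ligands of the same kind were read from a list of 20 further genes, of which 17 were tested. LPS raised 10 and lowered 6, and IFN-β raised 10 and lowered 3, with median log2 fold changes of 1.63 and 0.40. The 6 lower with LPS are 35.3% of the 17, beside 35.4% of all tested genes, and the 10 higher are 58.8%, beside 32.8%. With IFN-β the shares were 58.8% higher and 17.6% lower, beside 23.6% and 23.3%. The largest increases with LPS were those of *Tnfsf15* (TL1A), from 35.6 to 1108 CPM (log2 fold change 4.96), and *Cd200*, a ligand that restrains myeloid cells (3.45). The largest decreases were those of *Tnfsf14* (LIGHT, -3.23) and *Vsir* (VISTA, an inhibitory ligand), from 175.6 to 22.1 CPM (-2.99). With IFN-β the largest decreases were those of *Tnfsf14*, (-1.57) and *Cd24a* (-1.17), and *Vsir* fell by 1.12 on the log2 scale. *Tnfsf18* (GITRL, 3.48, SE 0.56, from 0.2127 to 2.36 CPM) and *Tnfsf8* (CD30L, 2.23) rose most with IFN-β. *Tnfsf18* had at most 12 counts in an unstimulated library. It met the filter only through its counts in stimulated DCs, so that its calls were favoured by the filter. All 9 values named here passed the edgeR test at an adjusted p of 0.05.

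Genes of the CD40 and NF-κB pathway, which relays signals of CD40 and of Toll-like receptors, mostly rose. Of 20, all tested, 18 were higher and 1 lower with LPS, and 16 were higher and 1 lower with IFN-β, with medians of 1.21 and 0.52. The shares higher are 90% and 80%, against 32.8% and 23.6% of all tested genes. The inhibitors *Tnfaip3* (A20, log2 fold change 3.13) and *Nfkbib* (2.65) rose most with LPS, and *Tnfaip3* (0.99) and *Nfkbie* (0.79) most with IFN-β. *Map3k14*, which encodes the NF-κB-inducing kinase NIK of the non-canonical pathway, was the gene lower with both (-0.62 and -0.26). IFN-β was below LPS for 16 of the 20 and above it for 1.

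All 16 genes of interferon and JAK-STAT signalling rose with both stimuli, as did 32.8% and 23.6% of all tested genes, with medians of 2.02 for LPS and 0.79 for IFN-β. *Usp18*, a brake on interferon receptor signalling, rose by 4.71 with LPS and 3.69 with IFN-β on the log2 scale. *Socs3* rose by 3.70 with LPS, and *Irf7*, a transcription factor of the interferon response, by 3.12 with IFN-β. IFN-β was below LPS for 10 of the 16, and the other 6 did not differ past the threshold.

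Of 18 DC maturation genes, 16 (88.9%) rose with LPS and 11 (61.1%) with IFN-β, with medians of 3.32 and 0.89, against 32.8% and 23.6% of all tested genes. *Cd200* and the NF-κB gene *Relb* are in this list and in another one. *Il6* rose by a log2 fold change of 10.18 with LPS, and *Il23a*, a subunit of IL-23, went from 0.008441 to 20.3 CPM. *Il23a* had at most 1 count in an unstimulated library and 2 in an IFN-β library, and *Il12a* at most 3 and 9. Both met the filter only through their counts with LPS, so that their calls there, among the 16, were favoured by the filter. *Il27* (3.96) and *Il15ra* (2.4) rose most with IFN-β.

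Genes from a list on the handling of CD86 and PD-L1 protein moved less. Whether each gene of this list acts on either protein was not examined here. Of 12, 7 rose and 4 fell with LPS, 5 rose with IFN-β, and the medians were 0.54 and 0.16. The 4 that fell are 33.3% of the list, near the 35.4% of all tested genes, and the increases are 58.3% with LPS and 41.7% with IFN-β, beside 32.8% and 23.6% of all tested genes. *Cmtm6*, which keeps PD-L1 on the membrane, rose by 1.22 and 0.77 on the log2 scale with LPS and IFN-β, and *Spop*, an adaptor of a ubiquitin ligase that targets PD-L1, by 0.97 and 0.72. *Cmtm4*, a relative of *Cmtm6*, fell by 0.94 with LPS and *Lrba* by 0.47. The receptors on T cells for these ligands were measured as well. Of 8, 5 passed the filter, and *Cd28* (-4.24, SE 0.63, from 6.83 ± 4.22 to 0.3629 ± 0.1407 CPM) and *Pdcd1* (-1.79, from 0.3316 to 0.08894 CPM) were lower with LPS. These are 40% of the 5, beside 35.4% of all tested genes. The unstimulated libraries were widely spread for *Cd28*. *Pdcd1* was near the floor, with at most 25 counts in an unstimulated library and 6 in an LPS library. *Tnfrsf9* (4-1BB) was well expressed in these cultures, at a mean of 113.6 CPM unstimulated, 110.2 with LPS and 132.3 with IFN-β. With IFN-β the log2 fold changes of the 5 ran from -0.39 to 0.45, with adjusted p from 0.2571 to 0.7586 (edgeR).

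**Figure D5:**
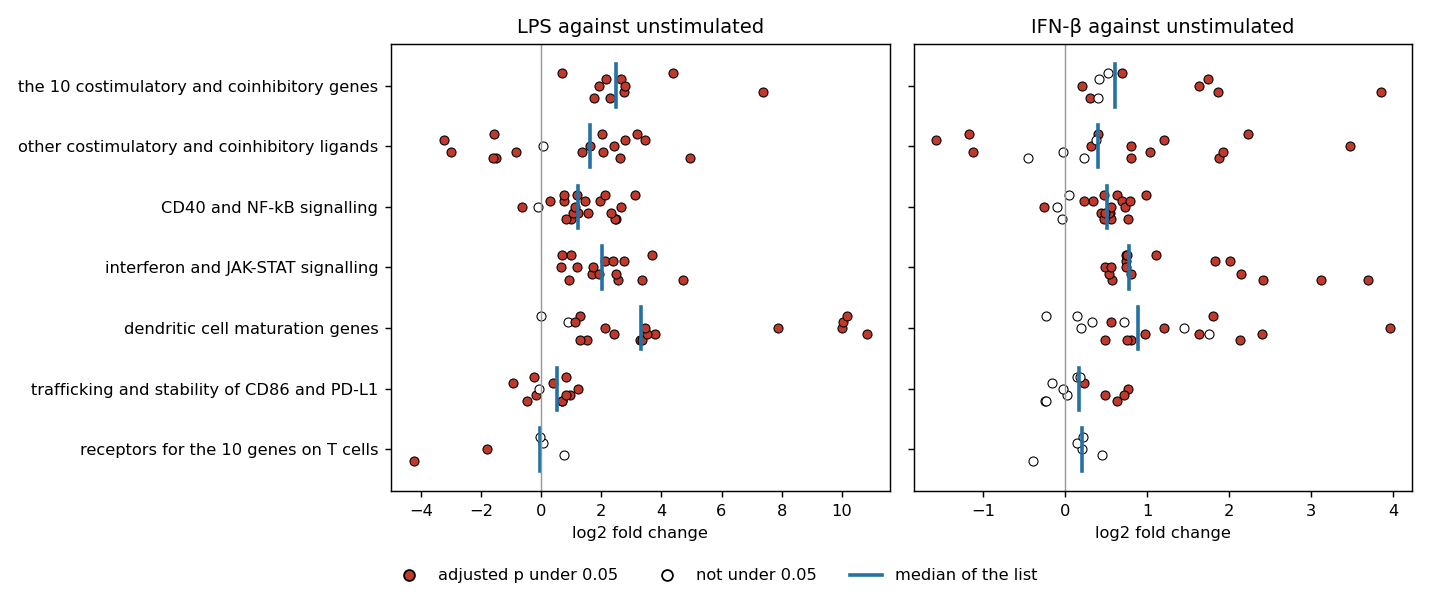
Log2 fold changes (edgeR) of every tested gene in the 10 costimulatory and coinhibitory genes and in 6 gene lists, for LPS (left) and IFN-β (right). Filled points had an adjusted p under 0.05 and blue lines are list medians, which run from -0.04 to 3.32 with LPS and from 0.16 to 0.89 with IFN-β.

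The genes whose profiles over the 9 libraries were nearest to each ligand were ranked by Euclidean distance between log2(CPM + 0.5) values, each relative to its own unstimulated mean. *Cd40* had 1 gene within a distance of 1, the cytokine subunit gene *Il27* (0.8416), followed by *Hdc* (1.37) and *Calhm6* (1.78). *Pdcd1lg2* had 1857 such genes, led by *Dnajb11* (0.2444), *Rab29* (0.2681) and *Actb* (0.2852). These numbers depend on the size of the response, since the distance is not scaled. From a profile of no change, *Cd40* lay at a distance of 14.2 and *Pdcd1lg2* at 1.7. *Cd274* was nearest to *Usp25* (0.2399), *Slc25a22* (0.2879) and *Casp1* (0.3063), and was itself among the 3 genes nearest to *Tnfsf4* (0.4582), after *Rnf19b* (0.2855) and *Socs1* (0.4464). *Cd86* was nearest to *Etnk1* (0.3753), *Arel1* (0.4662) and *Hmgn3* (0.5092), and *Cd83* to *Itgav* (0.3416), Gm33782 (0.3826) and *Ppp1cb* (0.4284). For *Cd80* the 3 were 4933412O06Rik (0.2427), *Dnajb6* (0.3699) and *Sbds* (0.387), and for *Icosl* Gm43430 (0.3079), *Slc11a2* (0.3094) and *Ppfibp2* (0.3308). *Tnfsf9* was nearest to *Unc93a2* (0.3337), *Cpd* (0.416) and *Lztfl1* (0.4184), and *Cd70* to 8430430B14Rik (0.3045), *Bmp1* (0.3437) and *Sdk1* (0.3458). The pseudocount of 0.5 CPM draws genes of low counts towards smaller changes, so that 4933412O06Rik, with a fitted LPS log2 fold change of 6.7, was near *Cd80*, with 2.28.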

How the data were processed

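RNA sequencing of 9 libraries (3 unstimulated, 3 LPS, 3 IFN-β, all at 6 h) was used. The authors prepared ribosomal RNA-depleted libraries, trimmed reads with Trim Galore (0.6.0 per the processing notes), mapped them with STAR (2.7.8a in those notes, an earlier version in the methods) to GRCm38 and deposited raw counts per gene, with no normalization. The strand setting is not given in the sources used here.

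The counts were tested with edgeR 4.0.16 (R 4.3.3) after filterByExpr and TMM scaling, with 1 term per group over all 9 libraries, quasi-likelihood F-tests and Benjamini-Hochberg adjustment over 16260 genes at 0.05. The code was run on simulated counts with independent libraries, few changed genes and no replicate-letter effect. That setting is simpler than these data and cannot show how the test behaves on them. Single values were compared by exact permutation (SciPy 1.17.1). Coordinates and exon lengths came from GENCODE M21 (GRCm38), in which 55144 of the 55471 identifiers had an entry, and promoters from RefSeq (GRCm38.p6). The pseudocount for log2 CPM was 0.5. The depth was 33425803 to 43735199 counts per library, and 3 counts were taken as the floor. Reads are not independent molecules.

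Same-letter libraries deviated from their group means together (correlation across genes 0.134 to 0.546 in each of 9 pairs), so the libraries appear to be paired by letter. The main fit and the permutation tests did not use the letters, and their SEs and p-values are unpaired. A fit with the letter as a block is given where it changed a call. For *Cd86* the SE in the block fit was 0.07 with each stimulus, against 0.22 in the main fit. The alternatives were DESeq2 1.42.0, other scalings, other filters on low counts, the 2 compared groups alone, the replicate block, stricter thresholds, other pseudocounts and each library left out. The 10 genes, the gene lists and the marker lists were chosen with earlier results of these data known. From each list, the text names the 2 genes with the largest called change in each direction and stimulus, and for each ligand the 3 nearest genes.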

Additional observations from a re-analysis of the deposited data

How the results depend on the processing

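Of 476 fold changes of the 10 genes under alternatives, 456 kept their direction and their side of the threshold. Among the others, 7 lost the call without a change of sign, 8 gained it and 5 changed sign. One sign change was that of *Icosl* with IFN-β under scaling by library size alone (-0.10), which lost its call as well (adjusted p = 0.3777, edgeR). The others were those of *Pdcd1lg2* for IFN-β against LPS, a value of 0.01 that was not called, with DESeq2 (-0.02), without LPS replicate A (-0.05), without LPS replicate B (-0.02) and without IFN-β replicate C (-0.08), in a range of -0.08 to 0.09 over the single libraries left out. Scaling by library size moved the median of all genes by -0.58 with LPS, -0.31 with IFN-β and 0.27 for IFN-β against LPS. Under it 9 ligand genes were called higher with LPS and 5 with IFN-β, and 9 were lower and 1 higher in the direct comparison. Of all tested genes, 78%, 59.2% and 55.5% were called in either direction under this scaling. The share of calls that were higher was then 21.9%, 22.3% and 77.9%, against 48.1%, 50.3% and 52.5% with TMM factors. Requiring also a log2 change of 1 or more in size left 4 genes with IFN-β, for which no share over all tested genes is given here.

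With the replicate block, 10, 9 and 9 of the 10 genes were called in the 3 comparisons. The same fit called 73.5%, 56.3% and 58% of all tested genes in either direction, against 68.2%, 46.9% and 49.1% in the main fit. The block added *Cd83* (adjusted p = 8.3e-04, edgeR) and *Tnfsf9* (adjusted p = 0.01472, edgeR) with IFN-β and changed no other call among the 10. Without any filter on low counts, *Icosl* lost its IFN-β call (adjusted p = 0.07064, edgeR) and *Cd83* and *Tnfsf9* gained one. *Icosl* lost it under upper-quartile factors too (0.14, adjusted p = 0.1832), and *Cd83* gained it with DESeq2 (adjusted p = 0.04184). The causes were not tested. A minimum of 10 counts in every library, and the fit of the IFN-β and unstimulated groups alone, left *Cd70* out. Its difference of mean log2 values with LPS was 2.5 with a pseudocount of 0.5 CPM, 3.73 with 0.1 and 1.86 with 1, since depth limits this gene at rest.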
